A study of Rattus norvegicus with 10 samples.

Results

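The kinetochore is the protein assembly that joins each chromosome to the fibres of the spindle when a cell divides. Zwint and 9 other kinetochore genes were followed in the RNA of plasma exosomes, vesicles that cells shed into the blood. The genes were taken by name from the platform annotation, requiring a transcript cluster (the array's unit of measurement, which groups the probes of a transcribed region) with no other gene symbol. They make up 10 of 22093 genes that the annotation names in this way, and each had 1 cluster. Knl1 was listed only under its older symbol Casc5, which RefSeq gives as a synonym, so 9 of the 10 were found under their current symbol. Zwint was chosen by its lower mean signal in conditioned than in control rats on these same arrays, so its difference between groups is described here without a test. The other 9 were chosen by function.

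All 10 animals were male Wistar rats, and each gave 1 array. The 5 RIC rats had undergone remote ischemic conditioning, a treatment that briefly cuts off and restores the blood supply of a body part away from the organ to be protected. It comprised 4 cycles, each with ischemia for 5 min and then reperfusion for 5 min. The 5 control rats were healthy and, as the labels separate the groups, were taken as not conditioned, although the treatment text is the same for every animal. Neither the body part nor the interval before blood was drawn is stated in the labels. Values are log2 signals as deposited, with means given ± SD.

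In dividing cells the outer kinetochore is built on KNL1, the MIS12 complex and the NDC80 complex, which grips microtubules. ZWINT binds KNL1 and recruits the RZZ complex (ROD, ZW10 and Zwilch), which brings checkpoint proteins to chromosomes that are not yet attached. BUB1, BUBR1 (encoded by Bub1b) and MAD2 (encoded by Mad2l1) hold back anaphase until attachment is complete, and CENP-E is a motor that moves chromosomes towards the spindle equator. Most of these genes are transcribed mainly in cells that are about to divide. Rat Zwint was also described as a binding partner of SNAP25, a SNARE protein of neurons, and RefSeq lists Sip30 among its synonyms. Blood platelets and mature red cells of mammals have no nucleus and do not divide.

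Many promoters of cell division genes carry a short element, TTTGAA, known as the cell cycle genes homology region. RefSeq promoters on build GRCr8, from 250 bases before to 50 bases after each start, were at hand for 9 of the 10 genes, all except Zwint. On either strand, 6 of these 9 held TTTGAA (read as TTCAAA on the other strand), against 18.3% of 33469 rat promoters. The choice by function did not read promoter sequence, but it took genes of cell division, whose promoters the element is known from. The count of 6 of the 9 is therefore a description and not an independent result. Each had 1 match, in capitals below with up to 12 flanking bases on each side, 5′ to 3′ on the gene's strand. In Ndc80 the window ends with the promoter table.
Nuf2 (chr13:84255552-84255581, minus strand): aaaggcggctggTTTGAAaagtgacaacgg
Spc25 (chr3:74396758-74396787, minus strand): ggcgctccggagTTTGAAattgaaagtcgg
Ndc80 (chr9:118887480-118887508, minus strand): gaaattttaaaaTTCAAAccgcccaaggt
Mad2l1 (chr4:97236524-97236553, plus strand): ttcgtagttactTTTGAAccgggtggcggg
Bub1b (chr3:126017051-126017080, plus strand): ggagacgttaaaTTTGAAagttggcggccc
Knl1 (chr3:126490947-126490976, plus strand): cagaaaaacgttTTCAAAaatggatgggat
The matches lay between 57 bases before and 33 bases after the annotated start. Spc24, Bub1 and Cenpe had no match in their windows. A match is a run of letters, and binding was not measured here.

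Marker genes of vesicles, platelets and red cells had high signals on the arrays, and the source of the RNA was not separated. Of 8 exosome marker genes, all 8 lay above background, and Cd9, Sdcbp and Hspa8 sat at the ceiling of the table (19.93) on all arrays, as did the platelet gene Pf4 and the globin gene Hba-a1. Background was taken from 1444 clusters of olfactory and vomeronasal receptor genes, whose mean signals centred on 4.01 (median) and reached 4.38 at their 95th percentile. Array medians ran from 4.05 to 4.23. The receptor median was 3.89 to 3.99 in control and 4.01 to 4.09 in RIC samples, so background itself was higher in every RIC sample. The median of abundant clusters (mean between 6 and 18) was 7.80 to 8.37 in control and 7.50 to 7.87 in RIC samples. Control sample 2 had the widest distance between these medians (4.48) and RIC sample 5 the narrowest (3.41).

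Zwint was abundant in both groups, and the other 9 kinetochore genes were at or close to background in both. Zwint had a mean of 11.16 over the 10 arrays, 7.15 log2 units above the receptor median. The other 9 had means between 4.13 and 5.18, of which 6 lay above 4.38, the receptor 95th percentile. Probes bind with different strength, so each gene is set against background here and not against another gene.

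**Figure D1:**
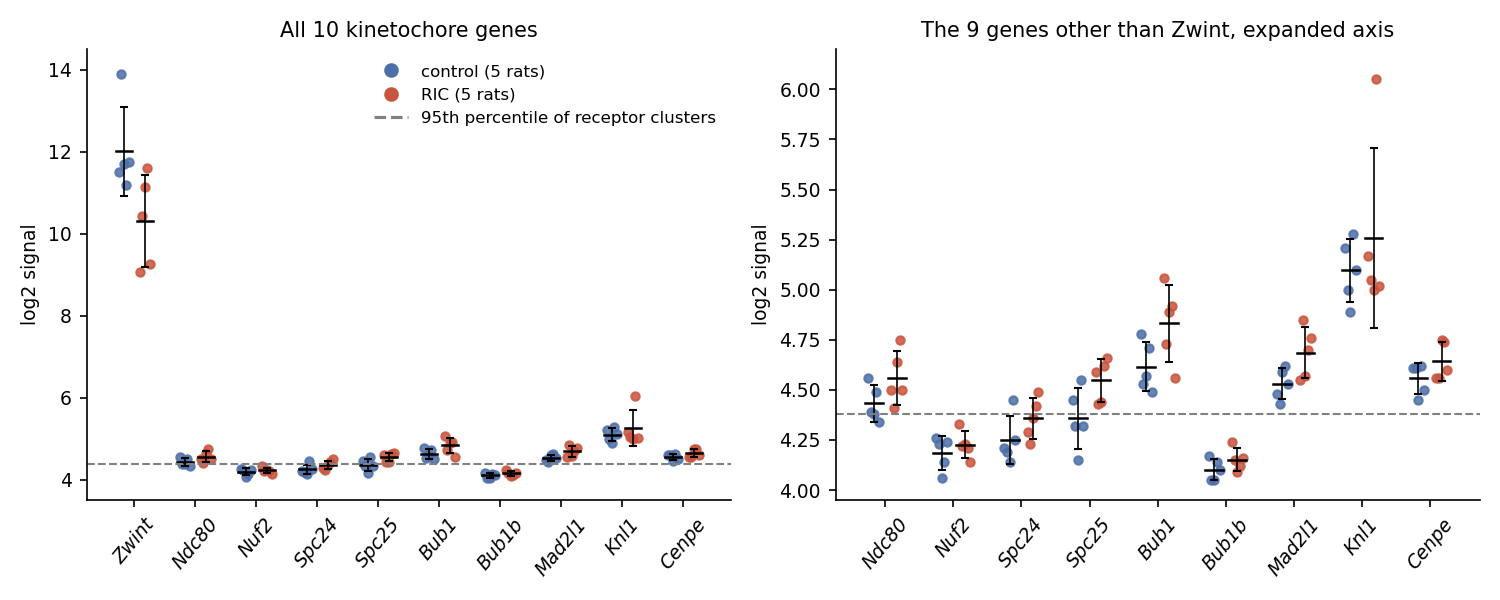
Log2 signal of the 10 kinetochore genes in each rat (points), with group mean and SD (bars), and the 95th percentile of receptor clusters at 4.38 (dashed line). The left panel shows all 10 genes on 1 axis, with Zwint between 9.07 and 13.90. The right panel expands the axis for the other 9, which lie between 4.05 and 6.05.

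In control samples 1 to 5 Zwint measured 11.50, 13.90, 11.70, 11.18 and 11.76. In RIC samples 1 to 5 it measured 9.07, 10.44, 11.14, 11.61 and 9.27. Control sample 2 stood above all the others, and RIC samples 1 and 5 stood lowest. Of the 5 RIC samples, 4 lay below every control sample, while RIC sample 4 lay inside the control range, so the groups overlapped. All 10 values were above the receptor 95th percentile of their own array.

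The group means were 12.01 ± 1.08 in control and 10.31 ± 1.12 in RIC (n = 5 each), a log2 difference of -1.70 (SE 0.65), or a 3.25-fold lower signal. These are the values that chose the gene. Among 667 clusters with a mean within 1 log2 unit of Zwint's, the median difference was -0.28 and 485 were lower in RIC. Of them, 23 (3.45%) had a difference as low as Zwint's or lower, which again describes the choice. In a bulk vesicle preparation, fewer vesicles that carry an RNA and less of it per vesicle cannot be told apart. Without control sample 2 the control mean was 11.54 ± 0.26 and the difference -1.23.

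Zwint varied widely between rats of the same group. Its SD pooled over the groups was 1.10, against a median of 0.60 for the 667 clusters of like level, and 72 of them (10.8%) had an SD as large or larger. In the controls most of that spread came from sample 2. The RIC rats spread over 2.54 log2 units with no such single sample.

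Zwint moved with the signal range of the arrays. Control sample 2 had the highest Zwint value and the widest distance between abundant and receptor clusters. RIC samples 1 and 5 had the lowest Zwint values, with distances of 3.64 and 3.41, among the 3 narrowest. RIC sample 3 had a distance of 3.61 and a Zwint value of 11.14. After the trend of each array with signal level was removed, the Zwint difference was -1.59, and after repeated quantile normalization it was -1.34. The part of the signal range in the difference was not tested beyond these values.

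**Figure D2:**
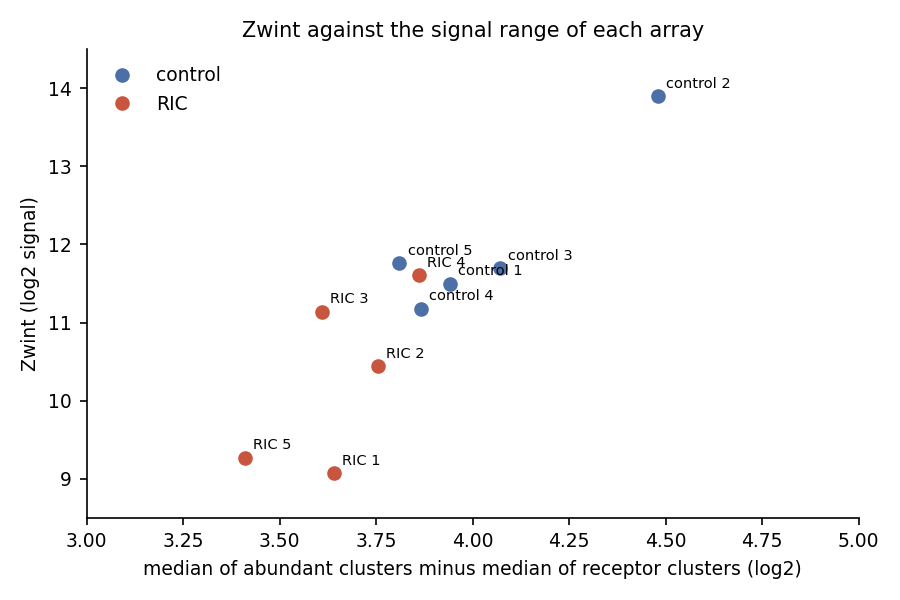
Zwint log2 signal of each rat against the distance between the median of abundant clusters (mean 6 to 18) and the median of receptor clusters on the same array. Control sample 2 lies at 4.48 and 13.90, and RIC sample 5 at 3.41 and 9.27.

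Markers of blood and vessel cells differed in mean between the groups in both directions. Of the 8 exosome markers, 5 had a lower mean in RIC, 0 had a higher mean and 3 were at the ceiling throughout. Their median difference was -0.19. All 7 genes listed as endothelial had lower means in RIC, with a mean level of 6.94 to 8.18 in control and 6.55 to 7.15 in RIC samples. Highest among them were Pecam1 and Vwf (means of 10.77 and 10.22), and the cells that these RNAs came from were not separated. Of 12 platelet genes measured, 9 were lower, 1 was higher and 2 were at the ceiling throughout. The mean level of the 12 was 15.65 to 16.21 in control and 15.13 to 15.93 in RIC samples. Itgb3, counted as lower, stood at 18.31 on all arrays but RIC sample 1 (18.23). Treml1, also lower, stood at 17.86 on all but RIC samples 1 (17.77) and 5 (17.57). Gp9, the gene that was higher, was at the ceiling except in control sample 3 (19.78) and RIC sample 5 (19.81). Of 12 erythroid genes, 8 were higher, 1 was lower and 3 did not vary, with a mean level of 9.35 to 9.72 and 9.48 to 10.73. Higher and lower means in RIC numbered 3 and 3 for monocyte, 5 and 4 for neutrophil, 5 and 1 for B lymphocyte and 7 and 2 for T lymphocyte genes. For comparison, 60.0% of all clusters had a higher mean in RIC, while 485 of the 667 clusters near Zwint's level were lower. None of these marker genes passed the test described below, and their part in the Zwint difference was not tested. For neurons, the cells of ZWINT's partner SNAP25, 3 of 9 markers lay above background, among them the neuronal tubulin gene Tubb3 with a mean of 4.95. Snap25 was below the receptor 95th percentile on all 10 arrays, with values of 3.90 to 4.08 in control and 4.04 to 4.28 in RIC samples.

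On GRCr8, RefSeq places Zwint on chromosome 20, the chromosome in the cluster's name, with 3 long noncoding RNA genes overlapping its locus. No cluster carried their symbols, so their signal was not separated from that of Zwint here. No source used here names the build of the clusters, so their coordinates are not printed.

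The genes whose pattern was most like that of Zwint were sought among 9790 clusters that had 1 symbol, varied and lay above the receptor 95th percentile, which held 6 of the other 9 members. The correlations (n = 10 arrays) describe arrays that share scaling and signal range. By value, the closest were Pnpla8, a phospholipase of mitochondria and peroxisomes (Pearson r = 0.97), Hmgb1-ps33, a pseudogene of Hmgb1 (0.97), Srd5a3, an enzyme of dolichol synthesis (0.97), Stau2, which binds double-stranded RNA (0.97), and Oxr1, an oxidation resistance gene (0.97). The pseudogene may share probes with Hmgb1 and is uncertain. When each group's mean was removed, the closest were Srd5a3 (0.98), Vipr2, a receptor of vasoactive intestinal peptide (0.97), Daam1, a formin that assembles actin (0.97), Ano6, a phospholipid scramblase of platelets (0.96), and Cep135, a centriole protein (0.96). Without control sample 2 and RIC sample 1, the rats farthest from the Zwint median, these correlations were 0.91 to 0.98. Pnpla8 measured 13.31 ± 0.48 in control and 12.29 ± 0.76 in RIC (n = 5 each). Likeness by value carries over the group difference that chose Zwint, so that of Pnpla8 is described without a test. Daam1 differed less, with 7.55 ± 0.30 and 7.34 ± 0.31 (limma adjusted p = 0.669). Its difference turned to 0.06 after repeated quantile normalization and was -0.06 with the trend of each array removed.

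Correlations between Zwint and the other kinetochore genes took both signs. Over deviations from the group means on 10 arrays, its correlations with the 9 ran from -0.74 (Bub1b) to 0.55, with a median of -0.09 and 4 of 9 above 0. Among the 9 themselves, 36 pairs had a median of 0.22 and 27 were above 0, the highest being Ndc80 with Cenpe (0.83). All 9 were measured on the same arrays and most lie near background, so the correlations are given as a description.

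Whether the other 9 genes differed between groups was asked with limma, fitted to all 68842 clusters with Benjamini-Hochberg adjustment at a threshold of 0.05. None of the 9 passed, as was so for all clusters (0 called, 0%), and the lowest adjusted p over all clusters was 0.302. At an unadjusted p under 0.05 limma gave 2 of the 9, Spc25 and Mad2l1, both higher in RIC, against 7.97% of all clusters higher and 3.17% lower. All 9 had a higher mean in RIC, where 60.0% of all clusters and 76.3% of receptor clusters did too. Their median difference was 0.13, against 0.03 over all clusters and 0.09 over receptor clusters. With arrays centred on the receptors, 6 of 9 were higher and the median was 0.04. At an unadjusted p under 0.05 limma then gave 0 of the 9, as it did with arrays centred on their own median, after repeated quantile normalization, and without control sample 2, control sample 5 or RIC sample 4. Of all clusters under that p, 71.6% were higher in RIC as deposited and 15.5% after centring on the receptors, so that share depends on the scaling.

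The NDC80 complex, which binds microtubules, is measured by all 4 of its subunit genes. Ndc80, the subunit that gives the complex its name, measured 4.56, 4.39, 4.38, 4.49 and 4.34 in control samples 1 to 5 and 4.50, 4.41, 4.64, 4.75 and 4.50 in RIC samples 1 to 5. RIC samples 3 and 4 lay above every control and the other 3 inside their range. Spc25, whose product forms the end of the complex that faces the chromosome, measured 4.45, 4.32, 4.15, 4.55 and 4.32 in control and 4.59, 4.43, 4.44, 4.62 and 4.66 in RIC. Its groups overlapped in RIC samples 2 and 3, and the log2 difference was 0.19 (SE 0.08, limma adjusted p = 0.435). Spc24, its partner at that end, measured 4.25 ± 0.12 in control and 4.36 ± 0.10 in RIC (n = 5 each). Nuf2, the partner of NDC80 at the microtubule end, measured 4.19 ± 0.08 and 4.23 ± 0.07. Neither Spc24 nor Nuf2 exceeded the receptor 95th percentile of its array in any sample, while Ndc80 and Spc25 did so in 4 of 10.

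Among checkpoint genes, Bub1, a kinase that marks the kinetochore for the other checkpoint proteins, measured 4.78, 4.53, 4.57, 4.71 and 4.49 in control and 5.06, 4.73, 4.89, 4.92 and 4.56 in RIC. RIC samples 1, 3 and 4 lay above every control, and the log2 difference was 0.22 (SE 0.10, limma adjusted p = 0.456). Mad2l1 measured 4.48, 4.43, 4.59, 4.62 and 4.53 in control and 4.55, 4.85, 4.57, 4.70 and 4.76 in RIC. Its RIC samples 2, 4 and 5 lay above every control, with a difference of 0.16 (SE 0.07, limma adjusted p = 0.434). Both genes exceeded the receptor 95th percentile of their array in 8 of 10 samples. Bub1b, whose product inhibits the anaphase-promoting complex together with MAD2, was at background, with 4.10 ± 0.05 in control and 4.15 ± 0.06 in RIC and no array above that percentile.

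Knl1, the scaffold to which ZWINT binds, exceeded the receptor 95th percentile on all 10 arrays, which of the other members Zwint alone did. It measured 5.21, 5.00, 4.89, 5.28 and 5.10 in control and 5.17, 5.05, 5.00, 6.05 and 5.02 in RIC. RIC sample 4 stood alone, and the other 4 RIC samples lay inside the control range. RIC sample 4 was also the array with the highest mean level of the erythroid genes (10.73) and of Alas2, the enzyme of haem synthesis in red cell precursors (15.23, against 11.78 to 13.84 on the other 9 arrays). The part of these genes in the Knl1 value was not tested. The difference was 0.16 (SE 0.20, limma adjusted p = 0.770), and without RIC sample 4 it was -0.04. Cenpe measured 4.56 ± 0.08 in control and 4.64 ± 0.10 in RIC and exceeded the percentile in 7 of 10 samples. The 95% intervals of the 9 differences ran between -0.29 and 0.61, the widest being that of Knl1. Signal this close to background compresses differences, so these intervals limit array signal and not RNA amount.

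**Figure D3:**
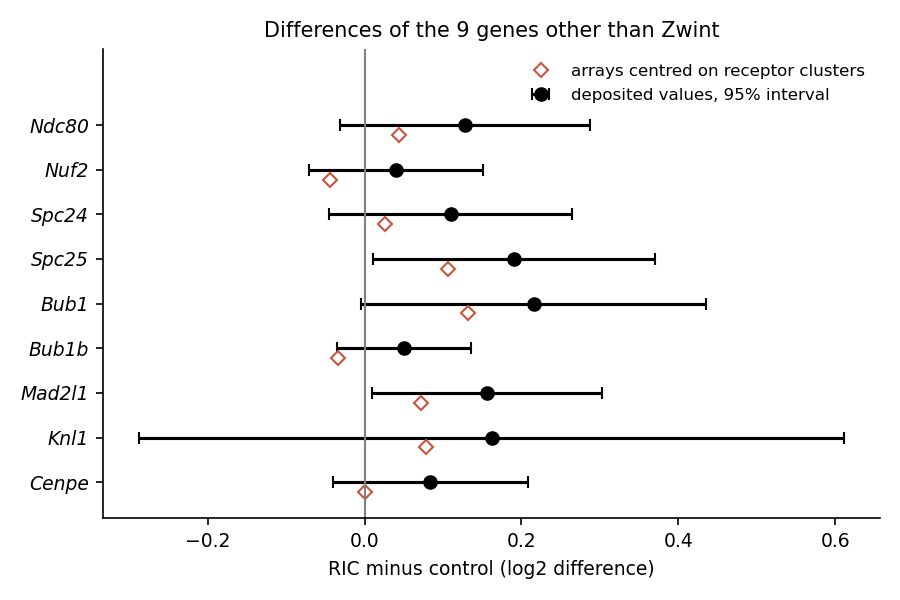
Log2 difference between RIC and control for the 9 genes other than Zwint. Filled points with bars show the deposited values with 95% intervals from limma, and open diamonds show the difference after each array was centred on the receptor clusters. All 9 filled points are above 0, and 6 of 9 diamonds are.

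The wider kinetochore and the machinery of cell division were examined in 106 other genes. None passed limma in either direction. At an unadjusted p under 0.05 limma gave 17 of the 106 higher and 1 lower, against 7.97% and 3.17% of all clusters. Most of these 17 had means below 4.38, the receptor 95th percentile, and 76.3% of receptor clusters had a higher mean in RIC. A higher mean in RIC was found for 70 of the 106, against 60.0% of all clusters, and the median difference was 0.06. After centring on the receptors that median was -0.02, with 45 higher. As deposited, 34 of the 66 genes above background were higher (median 0.01). The median difference of all 22545 clusters above background was -0.03.

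By complex, MIS12 genes split into 2 higher and 2 lower with a median difference of -0.01. Mis12 itself, which anchors KNL1 and NDC80, measured 5.21 ± 0.21 in control and 5.13 ± 0.17 in RIC. Of the 4 genes of the RZZ complex and its adaptor Spindly, 3 were higher (median 0.06), and Zw10, the protein after which ZWINT is named, measured 4.30 ± 0.09 and 4.25 ± 0.08. Other checkpoint genes split into 2 higher and 4 lower (median -0.02). Genes of the chromosomal passenger complex and shugoshins, which correct wrong attachments and guard cohesion, split into 5 and 1 (0.06), and SKA genes, which help NDC80 to hold microtubules, into 2 and 1 (0.16). After centring on the receptors, the median turned to -0.03 for RZZ and Spindly (1 of 4 higher) and to -0.02 for the passenger complex (3 of 6 higher). That of the checkpoint genes was then -0.11 (1 of 6 higher), and without control sample 2 it was 0.02 (4 of 6 higher).

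In the constitutive centromere network, the inner layer on which the kinetochore is built, 13 of 20 measured genes were higher and 7 lower (median 0.06), and 8 of 20 lay above background. Cenpp, a member of that layer, measured 7.74 ± 0.33 in control and 7.53 ± 0.39 in RIC (limma adjusted p = 0.715), and its difference turned to 0.08 after repeated quantile normalization. Motors and fibre proteins split into 9 higher and 6 lower (0.04). ZWINT's reported partners and genes of vesicle tethering split into 5 and 3 (median 0.02). After centring on the receptors these medians turned to -0.03 for the centromere network (8 of 20 higher), -0.05 for the motors (4 of 15) and -0.06 for the partners (3 of 8). Among the 8 centromere genes above background, 2 were higher, with a median of -0.035. The median of the motors was also below 0 without RIC sample 4 (-0.02).

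Of 29 cell cycle genes, 25 had a higher mean in RIC and the median difference was 0.11. Above background lay 20 of the 29. None passed limma, and 5 had an unadjusted p under 0.05, all higher, against 7.97% of all clusters higher at that p and 60.0% with a higher mean. Most of these 5 were not among the 20 above background. After centring on the receptors, 20 of 29 were higher and the median was 0.02. Mki67, which encodes the proliferation antigen Ki-67, measured 6.15, 6.04, 5.90, 6.57 and 5.84 in control and 6.95, 6.11, 6.03, 7.91 and 6.14 in RIC samples 1 to 5. RIC samples 1 and 4 lay above every control, and RIC sample 4 was also the highest sample for Knl1 and Ndc80. RIC sample 4 was also the array with the highest level of erythroid genes. The Mki67 difference was 0.53 (SE 0.36, limma adjusted p = 0.581), and without RIC sample 4 it was 0.21. Pcna, the clamp of DNA replication, measured 6.55 ± 0.23 in control and 6.70 ± 0.35 in RIC.

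Cohesin and condensin genes, which hold and compact chromosomes, split into 4 higher and 8 lower with a median difference of -0.12. Without control sample 2 that median was -0.01 with 6 of 12 higher, after repeated quantile normalization -0.02 with 6 higher, and with the trend removed -0.03 with 5 higher. Stag2, a cohesin subunit used throughout the cell cycle, measured 10.40, 11.23, 11.28, 10.28 and 9.72 in control and 9.67, 9.36, 9.54, 9.99 and 9.47 in RIC. Of the 5 RIC samples, 4 lay below every control. The log2 difference was -0.98 (SE 0.30), and it did not pass (limma adjusted p = 0.377). That difference was -0.72 after repeated quantile normalization, -0.80 without control sample 3 and -1.19 without control sample 5. Smc4, a condensin subunit, measured 7.64 ± 0.72 in control and 7.16 ± 0.25 in RIC (limma adjusted p = 0.574), and without control sample 3 its difference was -0.20.

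**Figure D4:**
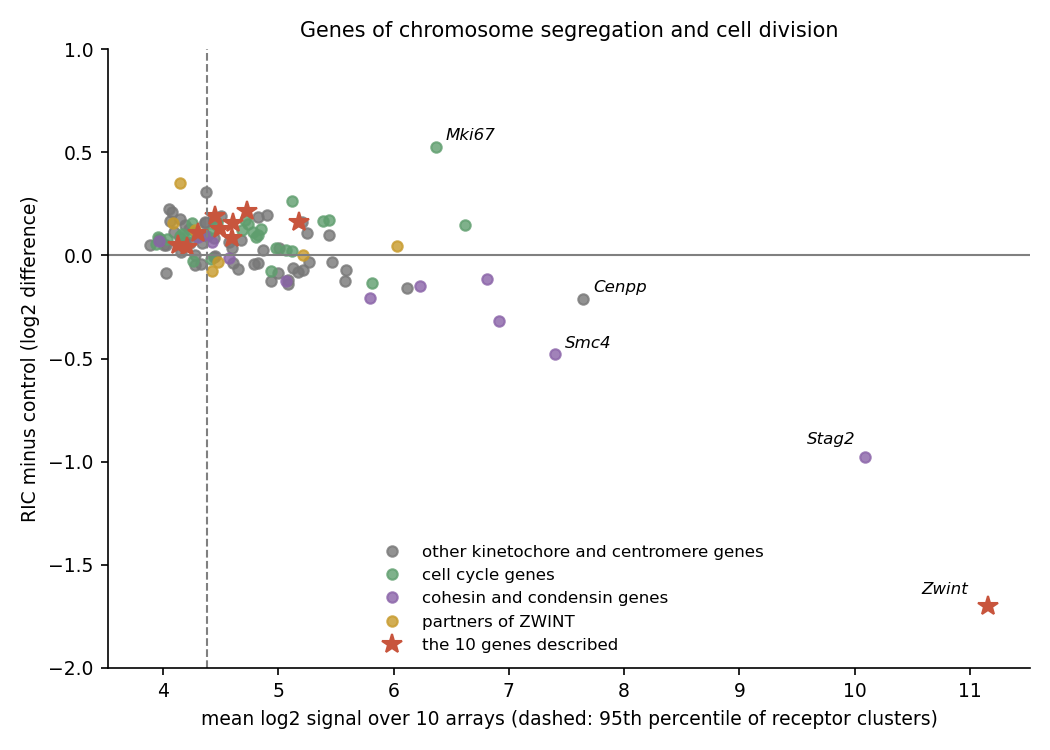
Log2 difference between RIC and control against mean log2 signal over 10 arrays for the 10 kinetochore genes (stars) and 106 other genes of chromosome segregation and division (points, coloured by list; genes in several lists are drawn once). Zwint lies at 11.16 and -1.70 and Stag2 at 10.09 and -0.98, while most genes lie near the receptor 95th percentile (dashed line, 4.38).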

How the data were processed

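The authors deposited 1 table of log2 signals, with 68842 transcript clusters and 1 column per rat, and per the submitters' processing notes used Affymetrix Expression Console. No source used here states its version, the normalization or the genome build. Values stop at a ceiling of 19.93. Some clusters hold a lower value of their own on most arrays, as Itgb3 did at 18.31. In the whole table, 1437 clusters have 1 value on all arrays and cannot show a difference. Of the clusters, 23446 had 1 symbol, 505 several and 44891 none in the platform annotation. A gene with several clusters was represented by the one of highest mean. Groups were compared as RIC minus control in limma 3.58.1 (lmFit, then eBayes; R 4.3.3), with no filter or covariate, and p-values adjusted by Benjamini-Hochberg over all clusters. The rats were separate animals. On simulated data with 200 changed clusters among 68842, all with a mean of 6 to 18, limma recovered 26.5%, 68.5% and 88.0% of them when the log2 change was 1, 2 and 3. That says nothing of dimmer clusters such as the 9 genes near background.

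Members and gene lists were chosen with earlier results of these data known, and Zwint for its group difference. The text names the 10 members, up to 3 genes per list with the highest mean, and the 5 genes most like Zwint by each correlation. Snap25 falls outside that rule and was named, as a partner of ZWINT, after its values were seen. Alternatives were another scaling, another variance model, filters, the replicate number as a block, and leaving out samples. Leaving out control samples 1 and 2 together, and array weights for the members, were added after the data were seen.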

Additional observations from a re-analysis of the deposited data

Results flagged for a closer look

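Zwint in control sample 2 (13.90) lay far above the nearest other control (11.76), a gap of 0.787 of the group's whole range, against a critical value of 0.71 for 5 samples. Knl1 in RIC sample 4 (6.05) lay above the nearest other RIC sample (5.17) by 0.838 of the range. Chance alone marks about 1 in 20 groups, and 20 groups of values were examined. Zwint was chosen on these values, so that rate does not apply to it.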

How the results depend on the processing

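The count of clusters past the threshold was 0 under all 20 alternatives run, with limma, and the number at an unadjusted p under 0.05 was 7665, from 4750 without control samples 1 and 2 to 8301 after centring on the receptors. Among the 22545 clusters above the receptor 95th percentile it was 2393 (10.6%, against 11.1% of all). Of the 7665, 71.6% were higher in RIC, against 26.8% after centring on the array median, 15.5% after centring on the receptors, 49.1% when quantile normalization was repeated, 47.9% when each array's trend with level was taken out and 36.2% with dim clusters left out. Zwint was lower in RIC under the 16 alternatives that can change its value, from -2.03 to -1.23 with each sample left out in turn and -1.24 without control samples 1 and 2. These values chose the gene, so they are no sign of stability. The median of the other 9 genes stayed positive, from 0.04 to 0.16 over 17 such alternatives. Single genes near 0 turned. Nuf2 gave -0.024 after centring on the array median, -0.044 on the receptors, -0.022 after quantile normalization and -0.013 with the trend removed. Bub1b gave -0.014, -0.034, -0.012 and -0.0048 under the same settings. Knl1 gave -0.036 without RIC sample 4 and 0.23 at most with another sample left out. The median of the 106 other division genes moved from 0.065 to 0.001 after centring on the array median and -0.019 on the receptors, by less than 0.1 in each case. The cause of these turns was not tested. Same-numbered samples did not deviate together more than others (correlations of -0.049 to 0.176 over 5 pairs, and -0.244 to 0.181 otherwise). The numbers were therefore not taken to pair the rats, though such correlations cannot exclude a pairing. With the replicate number as a block, limma gave 0 clusters, the Zwint difference was -1.70, the median of the other 9 was 0.128 and that of the division genes 0.065, which changed no call. With 1 sample per group and number, a block cannot alter a mean difference, so only calls could have changed. Signal near background limits what the 9 dim genes can show.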
